A study of Drosophila melanogaster with 6 samples.

Results

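The 10 genes described here work in the germline of the larval gonad, in its somatic cells (*tj*) or in the piRNA pathway: *vas*, *nos*, *bam*, *bgcn*, *aub*, *AGO3*, *piwi*, *tj*, *aly* and *can*. They were taken by their FlyBase symbols and matched to the FBgn identifiers of the count tables, where all 10 of 10 were found among 17869 genes. RNA-seq was carried out on whole L2 larvae to ask how loss of *Pyk*, the gene of the pyruvate kinase that ends glycolysis, alters larval gene expression. The 3 control samples were *Pyk* 23/+ heterozygotes and the 3 mutant samples were *Pyk* 23/31, so that both groups carried the *Pyk* 23 allele and only the mutants carried *Pyk* 31. Both alleles are small CRISPR/Cas9 deletions that shift the reading frame in the first coding exon, and larvae of both sexes were mixed. The alleles were made in a stock that drives Cas9 with the *vas* promoter, and the sources used here do not say whether the sequenced larvae still carried that transgene. The study describes the RNA samples as biological replicates, and mentions independent mating bottles for its metabolomics samples. Whether the RNA samples came from separate bottles is not stated in the sources used here. The p-values given here set the difference between genotypes against the spread of the 3 RNA samples within each genotype.

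In flies, piRNAs are small RNAs that guide the PIWI proteins Piwi, Aub and AGO3 to transposon transcripts, mainly in the gonads. Piwi acts in the nucleus, where it directs chromatin silencing, while Aub and AGO3 cut transposon RNA in the cytoplasm and amplify each other's piRNAs in the nuage, a perinuclear granule of germ cells that the RNA helicase Vas helps to organise. At L2 the gonads are very small organs embedded in the fat body, so their transcripts make up a minor part of the RNA of a whole larva. In such whole-animal libraries fewer cells of a type and less RNA per cell cannot be told apart.

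Each library held 11249487 to 16029304 read pairs assigned to genes, and levels are given as CPM, counts scaled by the TMM-adjusted library size to the same nominal total in every library. A level of 3 counts corresponded to 0.187 to 0.267 CPM, depending on the library. Genotypes were compared with edgeR's quasi-likelihood test over the 11422 genes that had at least 12 counts in the 6 libraries together, and a gene is said to have risen or fallen where its Benjamini-Hochberg adjusted p was at most 0.05. *Pyk* itself was at 442 ± 23.1 CPM among controls against 51.8 ± 7.06 CPM among mutants (SD, n = 3), which fits the labels of all 6 libraries (log2 fold change -3.09, SE 0.10, adjusted p = 8.4e-07). Control replicates 1 and 2 were closest to each other, with a chi-square per degree of freedom of 3.63 over genes, against 16.2 to 31.2 for every other pair of the same genotype. The adjusted p without replicate 3 of both genotypes is therefore given for each named gene that loses its call there.

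As compared with controls, *Pyk* mutants had higher levels of *aub*, *piwi* and *vas*, and 16 counts of *aly* against 1. Of the 10 genes, 4 rose and 0 fell, where 22.2% of all tested genes rose, 26% fell and 48.2% did either. At an unadjusted p of 0.05 or less 6 were higher and 0 lower, against 3083 and 3318 of the 11422 tested genes. DESeq2 called 1 higher and 0 lower, against 2497 and 2379 of these 11422. With limma-voom 3 were called higher and 0 lower, against 2651 and 2972. The lowest mutant library lay above the highest control library for 6 of the 10 genes (*vas*, *nos*, *aub*, *piwi*, *tj* and *aly*), which held for 29.4% of all tested genes. The reverse held for 0 of the 10 and 31.5% of all tested genes, so that the genotypes were apart in 60.9% of all tested genes. The median log2 fold change of the 10 was 0.40, against 0.015 for all tested genes. Of the 10 estimates 8 were above 0, as were 5833 of the 11422 over all tested genes. Only *aly* rose by 2-fold or more, which 5.25% of all tested genes did, and 0 fell that far, against 2.25% of all tested genes. All 10 passed the minimum of 12 counts, *aly* only through the mutant libraries. The summed level of the 10 genes was 25.8, 24.7 and 26.1 CPM in control replicates 1, 2 and 3, against 31.5, 34.9 and 38.4 CPM in mutant replicates 1, 2 and 3.

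**Figure D1:**
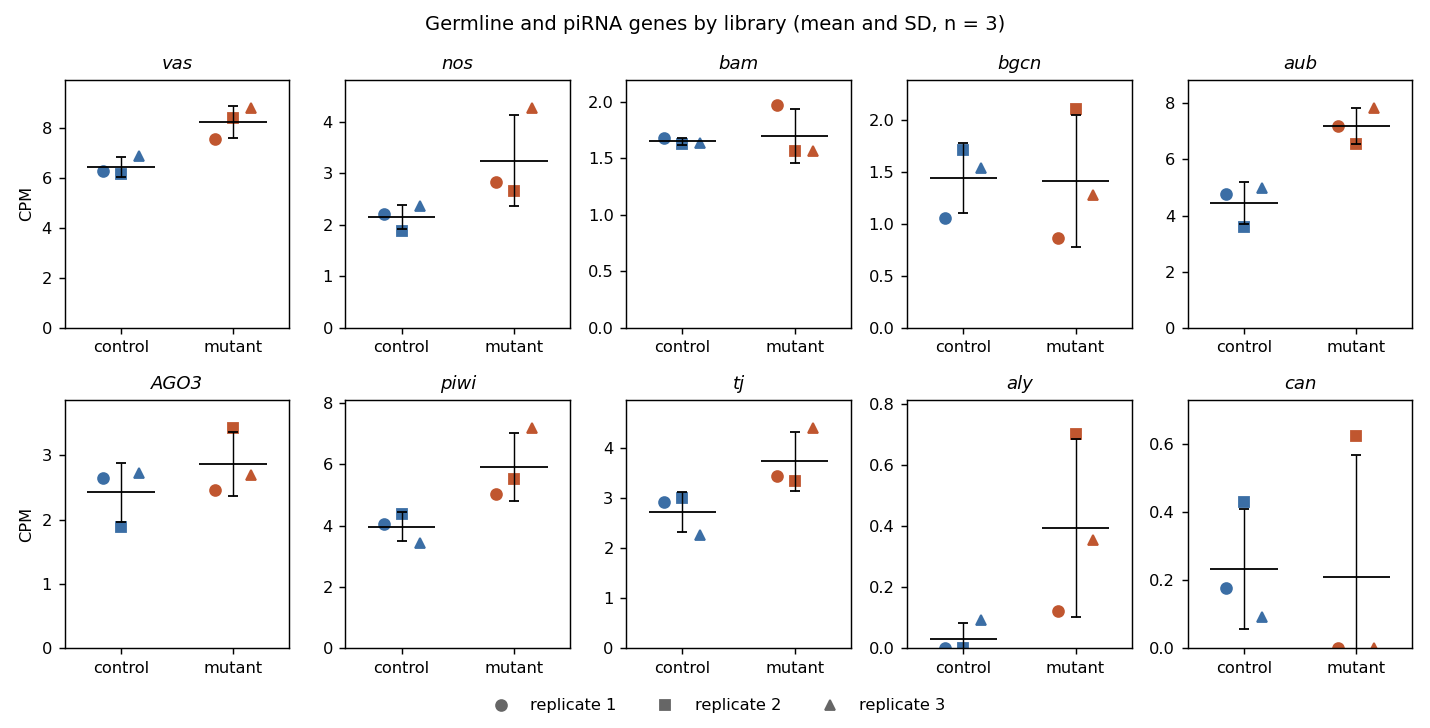
Level of each of the 10 genes in every library, in CPM on a linear axis from 0, with control libraries in blue, mutant libraries in orange, and the mean and SD of 3 libraries as a line and bar (bars that would reach below 0 end at the axis). The genotypes do not overlap for *vas*, *nos*, *aub*, *piwi*, *tj* and *aly*, and they overlap for *bam*, *bgcn*, *AGO3* and *can*.

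*vas* encodes the DEAD-box RNA helicase Vasa, the standard marker of germ cells from the embryo to the adult. It lies on chromosome arm 2L at 15061656 to 15074311, plus strand (BDGP6.54). Counts of *vas* were 71, 72 and 76 in control replicates 1, 2 and 3, against 123, 108 and 124 in mutant replicates 1, 2 and 3. Scaled to depth these were 6.28, 6.18 and 6.90 CPM among controls against 7.57, 8.42 and 8.81 CPM among mutants, so every mutant library lay above every control library by a narrow margin. The rise was 1.28-fold (log2 fold change 0.36, SE 0.13, edgeR adjusted p = 0.041). The call was lost without control replicate 1 (adjusted p = 0.116), control replicate 2 (0.126), mutant replicate 2 (0.094) or mutant replicate 3 (0.109), without replicate 3 of both genotypes (0.092), with DESeq2 (0.152) and with no filter on low counts (0.053), while the estimate stayed between 0.31 and 0.42 in all 15 alternative settings. The spread between control libraries was 6.05% of their mean, less than the 11.7% that counting alone gives at this depth.

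The *vas* gene shares exons with *solo*, which encodes a meiotic chromosome protein and is transcribed from the same strand. Of the merged exons of *vas*, 563 bp (24.6%) are also exons of *solo*, and read pairs that fall only there are assigned to neither gene. *solo* held 4, 2 and 3 counts among controls against 9, 4 and 5 counts among mutants, and did not pass the test (log2 fold change 0.63, SE 0.55, edgeR adjusted p = 0.37). *vig*, which lies on the other strand within an intron of *vas* and encodes a component of the RNA interference complex, fell from 630 ± 23.5 to 450 ± 10.3 CPM (SD, n = 3; log2 fold change -0.49, SE 0.058, edgeR adjusted p = 1.4e-04). In none of the 6 libraries was a read pair assigned to *vas* on the strand opposite to it.

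*nos* encodes Nanos, a translational repressor that keeps primordial germ cells and germline stem cells from differentiating, and lies on 3R at 19157238 to 19160202, plus strand. It was counted 25, 22 and 26 times among controls against 46, 34 and 60 times among mutants. On the CPM scale this was 2.21, 1.89 and 2.36 among controls against 2.83, 2.65 and 4.26 among mutants, with mutant replicate 3 well above the other libraries and no overlap between genotypes. The log2 fold change was 0.59 (SE 0.24) and did not pass the test (edgeR adjusted p = 0.064). It passed without mutant replicate 2 (adjusted p = 0.0498) and with library totals in place of TMM (0.046), and in no other of the 15 settings. Exons of 2 genes on the opposite strand, *CG11779* and *Nsun5*, cover 269 bp and 104 bp of the *nos* exons, and 22 to 35 read pairs per library were assigned to the strand opposite to *nos*.

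*bam* and *bgcn* act together to end the divisions of the early germline: Bam is switched on when a germ cell leaves the stem cell state, and Bgcn is its partner in repressing translation. *bam* lies on 3R at 25243039 to 25245109, minus strand, and *bgcn* on 2R. Neither gene passed the test, and these were the only members apart from *can* whose estimate changed sign between settings. *bam* was at 1.68, 1.63 and 1.63 CPM among controls (19, 19 and 18 counts) and 1.97, 1.56 and 1.56 CPM among mutants (32, 20 and 22 counts). Mutant replicate 1 was the highest library and the other mutants were the lowest, so the genotypes overlap. The log2 fold change of *bam* was 0.049, with a 95% interval of -0.47 to 0.57 that allows a change of either sign (edgeR adjusted p = 0.88). *CG11854* covers 224 bp (11.5%) of the *bam* exons from the opposite strand, to which 0 to 15 read pairs per library were assigned. *bgcn* held 12, 20 and 17 counts among controls against 14, 27 and 18 among mutants, or 1.06, 1.72 and 1.54 CPM against 0.86, 2.11 and 1.28 CPM. Both the lowest and the highest library of *bgcn* were mutants, which varied by 44.7% of their mean where counting alone gives 22.5%. Its log2 fold change was -0.049 (95% interval -0.86 to 0.76, edgeR adjusted p = 0.92).

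*tut*, which encodes an RNA-binding protein that works with Bam and Bgcn in the testis, was the only gene of the germ cell marker list that fell. Its counts were 24, 32 and 22 among controls against 5, 9 and 12 among mutants, with every mutant library below every control library. *tut* fell from 2.29 to 0.621 CPM on average (log2 fold change -1.89, SE 0.36, edgeR adjusted p = 0.0019), and the call held in all 15 alternative settings.

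Of the PIWI genes, *aub* had the smallest adjusted p. Its protein binds piRNAs in the cytoplasm and cuts transposon transcripts. It lies on 2L at 10997819 to 11001476, minus strand, and shares 79 bp (2.62%) of its exons with *TTLL4A* on the opposite strand. Its counts were 54, 42 and 55 among controls against 117, 84 and 110 among mutants. The corresponding levels were 4.78, 3.60 and 4.99 CPM among controls against 7.20, 6.55 and 7.82 CPM among mutants, and the genotypes did not overlap. *aub* rose 1.61-fold (log2 fold change 0.69, SE 0.16, edgeR adjusted p = 0.0062), and of the 10 genes it was the only one that passed in all 15 alternative settings, with adjusted p between 0.0035 and 0.026.

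*piwi* encodes the nuclear PIWI protein, which germ cells and the somatic cells of the gonad both use, and lies on 2L at 10982205 to 10987420, minus strand, close to *aub*. Counts were 46, 51 and 38 among controls against 82, 71 and 101 among mutants. In CPM the controls were at 4.07, 4.38 and 3.45 and the mutants at 5.05, 5.54 and 7.18, with mutant replicate 3 highest and no overlap. The rise was 1.49-fold (log2 fold change 0.57, SE 0.18, edgeR adjusted p = 0.025). Without control replicate 1 the adjusted p was 0.068, without control replicate 3 it was 0.073, without mutant replicate 3 it was 0.090 and without replicate 3 of both genotypes it was 0.190. DESeq2 did not call *piwi* either (adjusted p = 0.070). *SCAR* on the opposite strand shares 191 bp (6.22%) of the *piwi* exons, and 41 to 75 read pairs per library were assigned to the strand opposite to *piwi*.

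*AGO3*, the partner of Aub in piRNA amplification, did not pass the test. It was counted 30, 22 and 30 times among controls against 40, 44 and 38 times among mutants, from a gene on 3L at 23554593 to 23689640, plus strand. Its level was 2.65, 1.89 and 2.72 CPM among controls against 2.46, 3.43 and 2.70 CPM among mutants. Only mutant replicate 2 stood above all controls, and the genotypes overlap. The log2 fold change was 0.24, with a 95% interval of -0.27 to 0.75 that includes the estimate for *aub* (edgeR adjusted p = 0.41). Within a library the ratio of *aub* to *AGO3* counts was 1.80, 1.91 and 1.83 among controls against 2.93, 1.91 and 2.89 among mutants, so 2 of the 3 mutants were above the controls and mutant replicate 2 was level with them (exact two-sided permutation test, p = 0.2, n = 3 per group).

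Relative to *vas*, a measure that does not depend on library scaling, *aub* was counted 0.761, 0.583 and 0.724 times as often among controls against 0.951, 0.778 and 0.887 times as often among mutants. The genotypes did not overlap, and the exact two-sided permutation p was 0.1, the smallest that 3 against 3 libraries can give. Of 16 such ratios computed, 4 reached that value, and p adjusted over the 16 ratios was 0.4 for each of these. The ratio of *piwi* to *vas* overlapped, with 0.648, 0.708 and 0.5 among controls against 0.667, 0.657 and 0.815 among mutants.

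**Figure D2:**
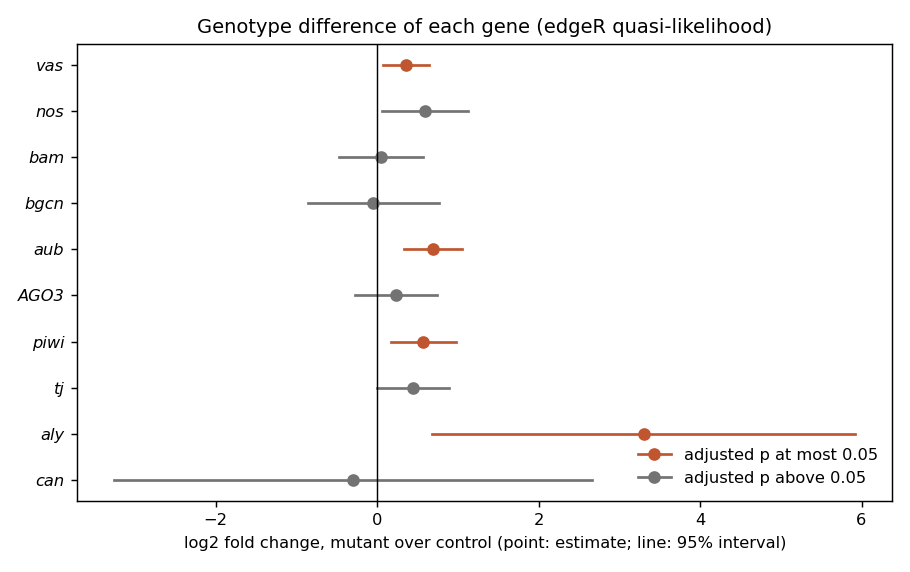
Log2 fold change of each gene, mutant over control, from edgeR's quasi-likelihood fit, with 95% intervals as lines and an orange colour where the adjusted p was at most 0.05. The estimates lie between -0.30 for *can* and 0.69 for *aub*, except for *aly* at 3.30, and the intervals of *aly* and *can* are the widest, for genes that hold 17 and 16 counts in all.

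*tj* encodes Traffic jam, a Maf transcription factor of the somatic gonad cells that touch the germline, and lies on 2L at 19464267 to 19467758, plus strand. Its counts were 33, 35 and 25 among controls against 56, 43 and 62 among mutants. Levels were 2.92, 3.00 and 2.27 CPM among controls against 3.45, 3.35 and 4.41 CPM among mutants, so that the genotypes did not overlap. The log2 fold change of 0.45 (SE 0.20) did not pass the test (edgeR adjusted p = 0.087), nor did it pass in any of the 15 alternative settings. The ratio of *piwi* to *tj* counts was 1.39, 1.46 and 1.52 among controls against 1.46, 1.65 and 1.63 among mutants, which overlap.

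*aly* and *can* are needed in spermatocytes, where they switch on the genes of meiosis and sperm formation: Aly belongs to a testis form of a chromatin complex that binds promoters, and Can is a testis form of a general transcription factor subunit. Both were near the limit of detection. *aly* (3L, 3024129 to 3026521, minus strand) had 0, 0 and 1 counts among controls against 2, 9 and 5 among mutants. The summed counts of 1 and 16 give a ratio of 12.6 after depth is taken into account, with an exact 95% counting interval of 1.96 to 528. The fitted log2 fold change of 3.30 (SE 1.17, edgeR adjusted p = 0.040) depends on how zeros are treated. It ran from 2.82 to 5.35 when 1 library was left out, the highest without control replicate 3, which holds the only control count, and the call was lost without control replicate 1 (adjusted p = 0.120), control replicate 2 (0.115) or mutant replicate 3 (0.070) and with limma-voom (0.070). Without mutant replicate 2, which held 9 of the 16 counts, *aly* fell under the count minimum and was not tested, and 4 of the 15 alternative settings gave it no adjusted p. *can* (3L, 10263909 to 10267111, minus strand) had 2, 5 and 1 counts among controls against 0, 8 and 0 among mutants, where all 8 counts came from mutant replicate 2. The ratio of the summed counts of *can* was 0.788 (exact 95% counting interval 0.258 to 2.41), and the fitted change did not pass the test (log2 fold change -0.30, SE 1.29, edgeR adjusted p = 0.86).

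The genes of the spermatocyte arrest complexes, to which *aly* and *can* belong, were highest in mutant replicate 2 for 12 of 12, these 2 included. This library also detected the most genes (12690), and the share of all tested genes that were highest in it was not computed. Among 11 detected genes of later sperm differentiation the same library was highest for 2, and mutant replicate 3 for 6. Several of these 11 held only 1 to 4 counts in all 6 libraries together. Among them were *dj*, *Mst87F* and *loopin-1*, for which the lead of mutant replicate 3 rests on 1 or 2 read pairs. The arrest complex genes summed to 11.3, 13.0 and 10.99 CPM among controls, 13.0 and 11.02 CPM in mutant replicates 1 and 3, and 20.9 CPM in mutant replicate 2. *nht* and *comr* were named after their values were seen. *nht*, a testis TAF like *can*, was counted 0, 2 and 1 times among controls against 3, 12 and 3 times among mutants. *comr*, a partner of Aly, was counted 1, 0 and 0 times among controls against 0, 7 and 0 times among mutants. Other genes of the list differed less between mutant replicates 1 and 2, such as *mia* (5.97 and 6.47 CPM) and *sa* (1 and 2 counts). Of 9 arrest complex genes tested, 1 rose (*aly*) and 0 fell, where 22.2% of all tested genes rose and 26% fell. By unadjusted p 2 were higher (*aly* and *tomb*) and 0 lower, and neither DESeq2 nor limma-voom called any. *tomb*, named after its values were seen, held 4 counts among controls against 19 among mutants. As with *aly*, *tomb* and *nht* reached the count minimum only through the mutant libraries, so their place among the tested genes depended on their level there. These counts of higher and lower genes are therefore no support for a direction. Among the 12 genes of later sperm differentiation 4 could be tested, 0 passed by edgeR, DESeq2, limma-voom or unadjusted p, and their summed level overlapped, with 62.8, 68.6 and 63.6 CPM among controls against 60.6, 65.2 and 74.1 CPM among mutants.

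**Figure D3:**
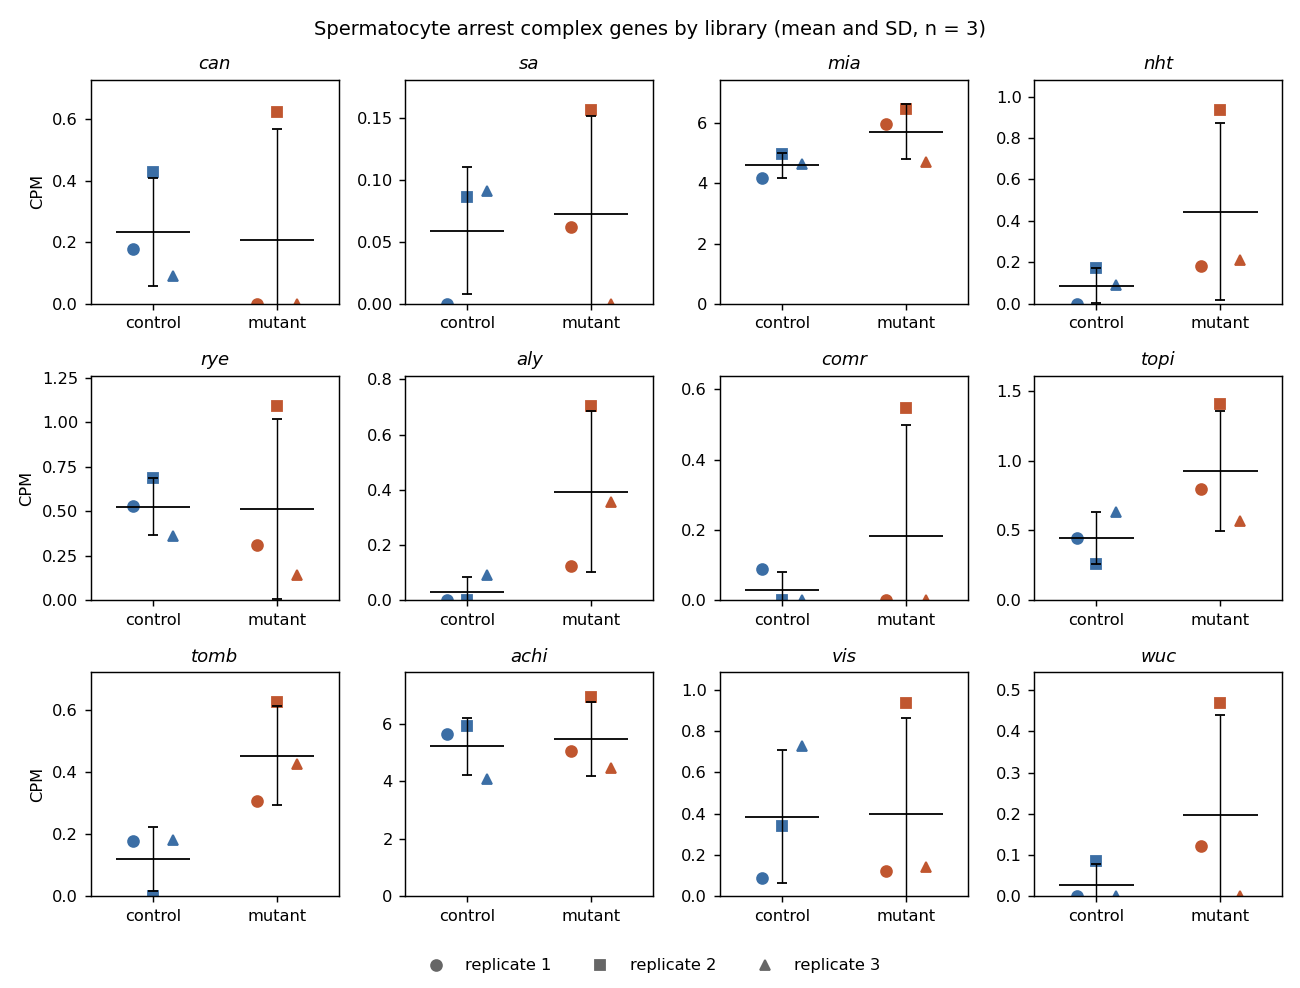
Level of the 12 spermatocyte arrest complex genes in every library, in CPM on linear axes from 0, with control libraries in blue, mutant libraries in orange, and the mean and SD of 3 libraries as a line and bar (bars that would reach below 0 end at the axis). The orange square, mutant replicate 2, is the highest point in 12 of 12 panels. The share of all tested genes that were highest in this library was not computed.

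Levels of different genes were compared per kb of merged exons. In the controls *vas* was highest at 2.82 ± 0.171 CPM per kb (SD, n = 3), followed by *aub* at 1.48 ± 0.248, *piwi* at 1.29 ± 0.154, *nos* at 0.917 ± 0.103 and *bam* at 0.847 ± 0.0144. Below these came *tj* at 0.782 ± 0.115, *AGO3* at 0.761 ± 0.146, *bgcn* at 0.346 ± 0.0816 and *can* at 0.0786 ± 0.0595 CPM per kb, with *aly* lowest at 0.0133 CPM per kb. Neighbours in this order were separated beyond the range of their libraries between *vas* and *aub*, *piwi* and *nos*, *AGO3* and *bgcn*, and *bgcn* and *can*, while *aub* and *piwi*, *nos* and *bam*, *bam* and *tj*, *tj* and *AGO3*, and *can* and *aly* overlapped. In the mutants the order began with *vas*, *aub*, *piwi* and *nos* again, and then ran *tj*, *AGO3*, *bam*, *bgcn*, *aly* and *can*. The control level of *vas* per kb exceeded that of 29.6% of the 11422 tested genes, and those of *aub* and *piwi* exceeded 21.2% and 19.6%. Annotated genes that were not tested are left out of these shares.

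Other factors of the piRNA pathway were counted by their step in it, and each count reads against the 22.2% of all tested genes that rose and the 26% that fell; differences between the groups were not tested. In the group that marks, transcribes and exports the piRNA precursors in germ cells, 3 of 4 tested genes rose and 0 fell (0 lower also by unadjusted p, DESeq2 and limma-voom), with a median log2 fold change of 0.90. *rhi*, the HP1-family protein that marks piRNA source loci, was counted 2, 2 and 2 times among controls against 17, 7 and 15 times among mutants. Like *aly*, *rhi* reached the count minimum only through the mutant libraries, so its place among the tested genes depended on its level there. The summed counts of 6 and 39 give a ratio of 5.12 (exact 95% counting interval 2.15 to 14.8; edgeR log2 fold change 2.28, SE 0.51, adjusted p = 0.0046). *del*, the partner that Rhino recruits, was at 2.48, 2.32 and 3.00 CPM among controls against 4.86, 6.08 and 4.34 CPM among mutants (log2 fold change 0.97, SE 0.19, edgeR adjusted p = 0.0027). Neither gene overlapped between genotypes, and both passed in every alternative setting that could test them. *nxf3*, which exports the precursors, rose by 0.83 on the log2 scale (SE 0.25, edgeR adjusted p = 0.022), but not without control replicate 1 (adjusted p = 0.071), control replicate 3 (0.059) or mutant replicate 3 (0.081), without replicate 3 of both genotypes (0.168) or with limma-voom (0.063), and 59.9% of its exons are shared with *ssp2* on the same strand. *cuff*, which protects the precursors, did not pass, and *moon*, which starts their transcription, was counted 2 times among controls against 8 times among mutants and was not tested.

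Among 22 tested factors of piRNA biogenesis and the nuage, 4 rose, 5 fell and 13 did not pass, with a median log2 fold change of 0.11, where 22.2% of all tested genes rose and 26% fell. Those that rose were *tud*, the Tudor scaffold of germ granules (log2 fold change 0.43, SE 0.057, edgeR adjusted p = 2.5e-04), *mino*, a mitochondrial acyltransferase (0.42, SE 0.083, adjusted p = 0.0024), *tapas*, a Tudor protein (0.48, SE 0.10, adjusted p = 0.0035), and *qin*, which was named after its values were seen (0.64, SE 0.15, adjusted p = 0.0062). Those that fell included *csul* and *vls*, the enzyme and cofactor of the arginine methylation that Tudor proteins read on PIWI proteins. *csul* fell by 0.44 (SE 0.067, edgeR adjusted p = 5.6e-04) and *vls* fell by 0.57 on the log2 scale (SE 0.078, adjusted p = 3.2e-04), with no overlap between genotypes for either. *nbr*, an exonuclease that trims small RNAs, fell by 0.31 (SE 0.083, adjusted p = 0.011; 0.051 without mutant replicate 1 and 0.079 with DESeq2), and *squ* and *papi*, named after their values were seen, fell by 0.90 and 0.27 (adjusted p = 0.012 and 0.017, the latter 0.068 without control replicate 1 and 0.060 without mutant replicate 2). *armi* was listed at 0 in all 6 libraries, and 99.6% of its exons are also exons of *CG46463* on the same strand, so its level could not be read from these counts. Many genes of this group were far more abundant than the PIWI genes, with *tud* at 320 CPM and *mino* at 154 CPM among controls on average, whereas *qin* was at 4.09 CPM.

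The group through which Piwi silences chromatin had 4 genes that fell and 0 that rose among 7 tested (0 higher also by unadjusted p, DESeq2 and limma-voom), with a median log2 fold change of -0.26, where 26% of all tested genes fell and 22.2% rose. The gene of HP1a, the heterochromatin protein, was at 74.1, 75.9 and 75.0 CPM among controls against 55.4, 56.2 and 48.7 CPM among mutants. It fell by 0.49 on the log2 scale (SE 0.075, edgeR adjusted p = 5.8e-04). *egg*, the histone H3 methyltransferase, fell by 0.32 (SE 0.074, adjusted p = 0.0055) and *ctp*, a dynein light chain, fell by 0.26 (SE 0.061, adjusted p = 0.0059). *arx*, a partner of Piwi that was named after its values were seen, fell by 0.61 (SE 0.16, adjusted p = 0.012), but not without replicate 3 of both genotypes (0.062). Apart from *arx*, the genes that fell here serve many tissues, and among 8 genes of the miRNA and siRNA pathways 1 rose and 3 fell, with a median of -0.17, which gives 4 of 8 that changed beside 48.2% of all tested genes. The one that rose was *AGO1*, the miRNA Argonaute (log2 fold change 0.24, SE 0.074, edgeR adjusted p = 0.023), which lost the call without control replicate 1 (0.089), control replicate 2 (0.110) or mutant replicate 3 (0.051). *r2d2* and *pasha* fell by 0.34 and 0.38 (edgeR adjusted p = 0.0054 and 0.0078), and *Dcr-1* fell by 0.23 (adjusted p = 0.045), a call that was lost without control replicate 2 (0.156), mutant replicate 1 (0.071), mutant replicate 2 (0.113) or mutant replicate 3 (0.086). With other tools, scalings and filters the adjusted p of *Dcr-1* was 0.146 by DESeq2, 0.057 by limma-voom, 0.119 with library totals, 0.063 with RLE size factors and 0.053 with filterByExpr, and it passed in 5 of 15 alternative settings.

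**Figure D4:**
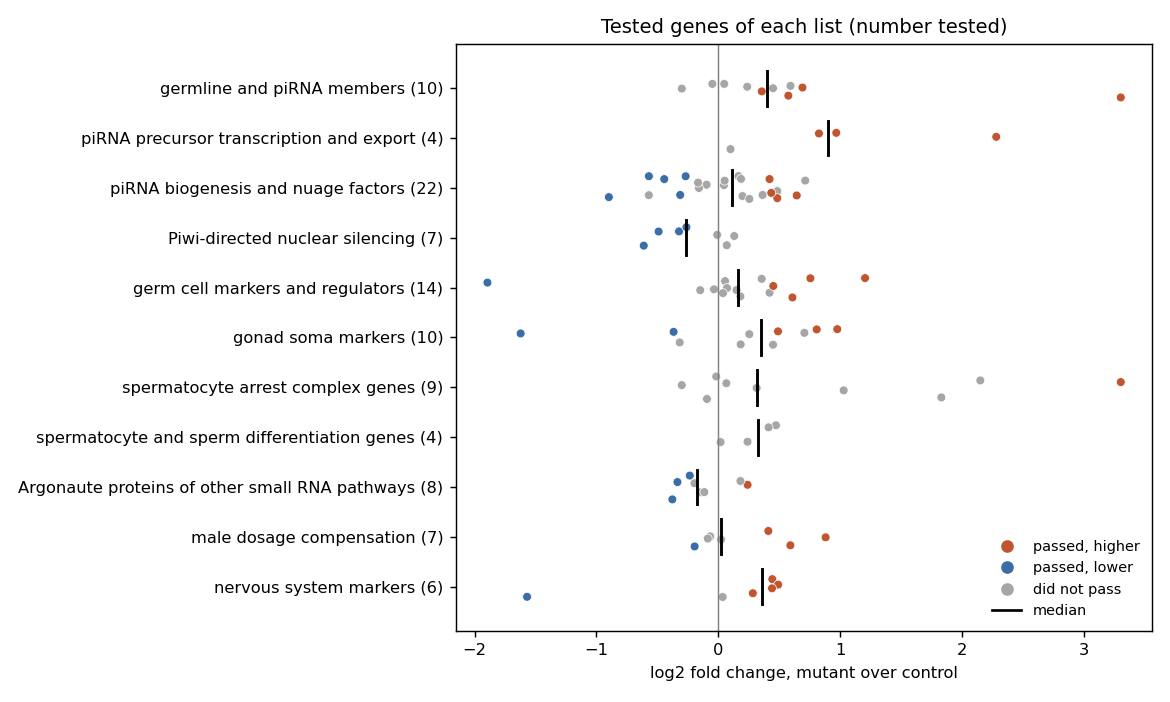
Log2 fold change (mutant over control, edgeR) of every tested gene in 11 gene lists, with orange and blue points for genes that passed higher and lower, grey points for genes that did not pass, and a black line at each list's median. The medians run from -0.26 for Piwi-directed nuclear silencing to 0.90 for piRNA precursor transcription and export, and every list with more than 10 tested genes holds points on both sides of 0.

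Of 14 tested markers and regulators of germ cells other than the 10 members, 4 rose, 1 fell (*tut*) and 9 did not pass, with a median log2 fold change of 0.17, where 22.2% of all tested genes rose and 26% fell. DESeq2 called 2 higher and 1 lower. *gcl*, needed to form germ cells in the embryo, rose from 14.4 to 24.4 CPM (log2 fold change 0.76, SE 0.084, edgeR adjusted p = 1.0e-04) and was called in all 15 alternative settings. *stil*, a germline factor that supports female germ cells, had 16 counts among controls against 47 among mutants (log2 fold change 1.20, SE 0.43, edgeR adjusted p = 0.042), and the call was lost without control replicate 1 (0.114), control replicate 2 (0.144), mutant replicate 2 (0.111) or mutant replicate 3 (0.097), and with DESeq2 (0.129), limma-voom (0.060) or unstranded counts (0.080), so that *stil* passed in 6 of the 14 settings that tested it. *chinmo*, which is also abundant in the nervous system, rose by 0.45 on the log2 scale (SE 0.14, adjusted p = 0.029), but not without control replicate 1 (0.102), control replicate 2 (0.093), control replicate 3 (0.051) or mutant replicate 1 (0.063). *zpg*, a gap junction protein of germ cells that was named after its values were seen, rose by 0.61 (SE 0.22, adjusted p = 0.045), a call that held without mutant replicate 2 but was lost without control replicate 1 (0.126), control replicate 2 (0.054), control replicate 3 (0.107), mutant replicate 1 (0.171) or mutant replicate 3 (0.053), without replicate 3 of both genotypes (0.094), and with DESeq2 (0.164) or limma-voom (0.058). Hence 1 of the list rose without control replicate 1 or without control replicate 2, and 2 rose without control replicate 3 or without mutant replicate 3. *cup* and *osk* were listed at 0 in all libraries, but 100% and 78.5% of their exons are shared with genes on the same strand.

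Of 10 markers of the gonad soma, 3 rose, 2 fell and 5 did not pass, with a median log2 fold change of 0.35 (the list includes *tj*), where 22.2% of all tested genes rose and 26% fell. DESeq2 called 2 higher and 0 lower, with adjusted p of 0.053 for *upd1*, 0.102 for *so* and 0.057 for *dsx*. *bab2*, a transcription factor of the ovarian soma, rose from 14.8 to 25.9 CPM (log2 fold change 0.81, SE 0.10, edgeR adjusted p = 2.0e-04) and *Wnt4*, a ligand of the ovarian soma, rose from 6.39 to 8.97 CPM (0.49, SE 0.13, adjusted p = 0.0099), both in all 15 alternative settings. *dsx*, the regulator of somatic sex, rose by 0.98 (SE 0.28, adjusted p = 0.015), but not without mutant replicate 3 (0.056) or without replicate 3 of both genotypes (0.120). *upd1*, the signal of the testis hub, had 1.24, 1.54 and 0.726 CPM among controls against 0.185, 0.546 and 0.426 CPM among mutants and fell by 1.62 on the log2 scale (SE 0.47, edgeR adjusted p = 0.017). *so*, a factor of the testis soma and of the eye, fell by 0.37 (SE 0.11, adjusted p = 0.020). Neither *upd1* nor *so* fell without control replicate 1 (0.055 and 0.070), control replicate 2 (0.076 and 0.067) or mutant replicate 1 (0.060 and 0.054), and *so* did not fall without mutant replicate 3 (0.056) either. Most of these genes are also used outside the gonad.

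Over all germline, piRNA, gonad soma and spermatocyte lists together, and leaving the 10 members out, 14 of 66 tested genes rose, 12 fell and 40 did not pass. This is 14 higher against 12 lower where 22.2% of all tested genes rose and 26% fell, and the median log2 fold change of the 66 was 0.16.

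RNAs that mark male cells also differed between the genotypes. *roX1*, a noncoding RNA of the male dosage compensation complex, was at 208, 220 and 201 CPM among controls against 404, 341 and 413 CPM among mutants. It rose by 0.88 on the log2 scale (SE 0.082, edgeR adjusted p = 4.5e-05), without overlap. *roX2*, the other such RNA, was at 4.87, 4.63 and 4.63 CPM among controls against 6.77, 6.86 and 7.68 CPM among mutants (log2 fold change 0.59, SE 0.13, edgeR adjusted p = 0.0050). *msl-2*, whose protein is made in males, rose by 0.41 (SE 0.11, adjusted p = 0.010; 0.063 without replicate 3 of both genotypes), while *msl-1*, which both sexes transcribe, fell by 0.19 (SE 0.070, adjusted p = 0.044), a call that was lost without control replicate 1 (0.086), control replicate 2 (0.106), mutant replicate 1 (0.090) or mutant replicate 2 (0.134). The call of *msl-1* also depended on tool, scaling and filter, with adjusted p of 0.224 by DESeq2, 0.132 with library totals, 0.067 with RLE size factors, 0.051 with filterByExpr and 0.073 with no filter, and it passed in 5 of 15 alternative settings. Of the 7 dosage compensation genes 3 thus rose and 1 fell, where 22.2% of all tested genes rose, 26% fell and 48.2% did either. The share of male larvae in each sample is not given in the sources used here, and its part in the levels of the 10 genes was not tested.

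Set against *roX1* within each library, *vas* was counted 0.0302, 0.0281 and 0.0344 times as often among controls against 0.0187, 0.0247 and 0.0214 times as often among mutants. Every mutant ratio lay below every control ratio (exact two-sided permutation p = 0.1, the smallest possible, and 0.4 adjusted over the 16 ratios). The ratio of *aub* to *roX2* overlapped, at 0.982, 0.778 and 1.08 among controls against 1.06, 0.955 and 1.02 among mutants (exact two-sided permutation p = 0.7). For *bam* and *roX2* the ratio was 0.345, 0.352 and 0.353 among controls against 0.291, 0.227 and 0.204 among mutants, with no overlap (exact two-sided permutation p = 0.1).

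Markers of other tissues of the whole larva moved as well. Their counts read against the 22.2% of all tested genes that rose, the 26% that fell and the 48.2% that did either. Summed nervous system markers were at 282 to 328 CPM among controls against 358 to 422 CPM among mutants, and 4 of 6 rose (*brp*, *Syt1*, *para* and, named after its values were seen, *nSyb*) while *repo* fell. The call of *para* (adjusted p = 0.041) held without control replicate 3 but was lost without any other library, at adjusted p of 0.065 to 0.138. Summed fat body markers, of the organ that surrounds the gonad, were at 6764 to 7054 CPM among controls against 4808 to 5495 CPM among mutants, and nearly all of this sum was *apolpp*, the lipid carrier of the hemolymph (6903 CPM among controls and 5160 CPM among mutants on average). *apolpp* fell, while the other 3 tested fat body markers had log2 fold changes of 1.05 (*Lsp1alpha*), 3.00 (*Lsp1beta*) and 0.78 (*Lsp1gamma*), of which that of *Lsp1gamma* passed, and the median of the 4 was 0.91. Midgut markers were at 1835 to 2487 CPM among controls against 2572 to 3336 CPM among mutants, with 3 of 5 higher. Muscle markers were at 52135 to 53862 CPM for controls and 46076 to 51764 CPM for mutants, with 3 of 6 lower, and hemocyte markers at 2048 to 2168 and 1726 to 1964 CPM, with 1 of 6 higher and 2 lower and most of the sum from *vkg*, a collagen (1933 and 1654 CPM on average). No marker of these 5 tissues was at 0 in all libraries. None of these ranges overlap between the genotypes, as was also the case for the sum of the 10 members. Taken singly, 60.9% of all tested genes did not overlap either. The part of these tissues in the levels of the 10 genes was not tested.

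By the measure of likeness used here, the root mean square difference of log2 CPM after centring each gene on its own mean over the 6 libraries, the pattern of *vas* was closest to that of *tud* (0.082) among 75 tested genes of the germline, piRNA, gonad soma and spermatocyte lists. *Rbp9* (0.10), *zfh1* (0.11), *pum* (0.12) and *Wnt4* (0.12) came next. These 5 are more abundant than *vas* or close to it in level, so counting error adds less to their distance than to that of rarer genes, and *AGO3*, at place 14, was the nearest of the other members. All 6 libraries enter each distance, and the value is a description.

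**Figure D5:**
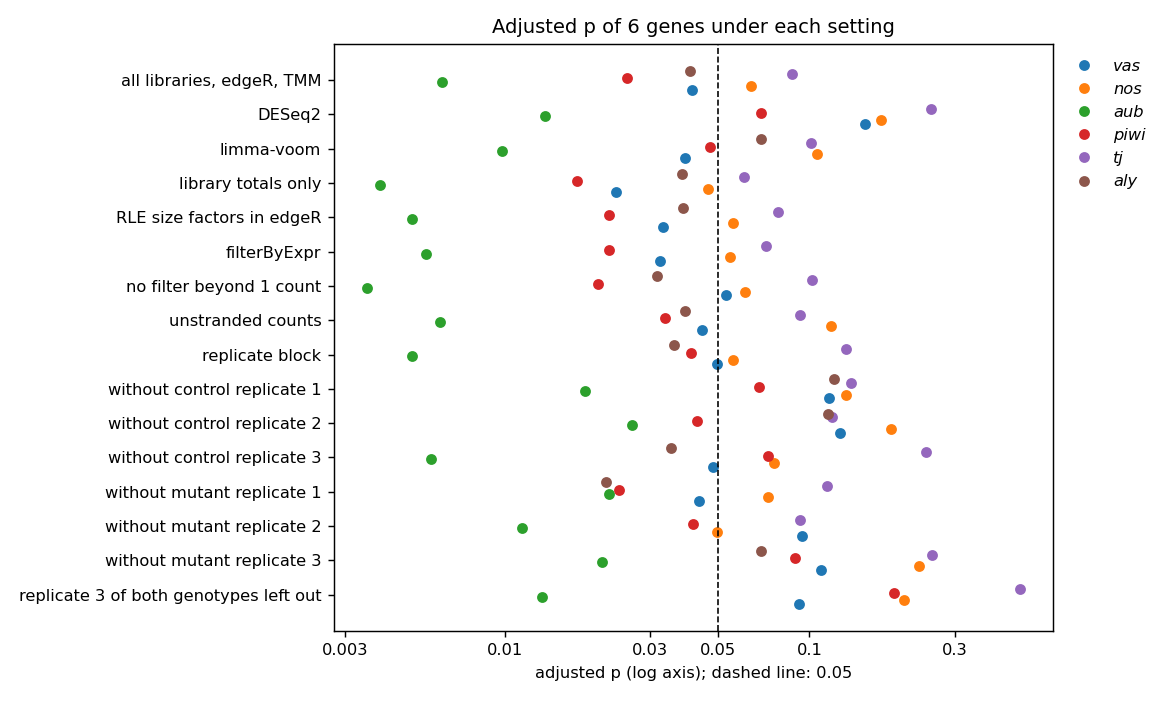
Adjusted p of 6 genes (log axis, with 0.05 as a dashed line) under the edgeR fit of all libraries and under 15 alternative settings, with no point where a gene was not tested. *aub* lies left of the line in every setting, *tj* right of it in every setting, and *vas*, *piwi*, *aly* and *nos* on either side.

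The 10 genes differed in how many of the alternative settings they passed. *aub* passed in 15 of 15 alternative settings, *piwi* in 10 of 15, *vas* in 8 of 15 and *aly* in 7 of the 11 that could test it. *nos* passed in 2 of 15, and *tj*, *AGO3*, *bam* and *bgcn* passed in 0 of 15. The estimates of *vas*, *nos*, *aub*, *AGO3*, *piwi* and *tj* were above 0 in 15 of 15.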

How the data were processed

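RNA of whole L2 larvae was measured in 3 samples of each genotype. The authors deposited 1 table per library with unnormalized counts of read pairs by gene, in the layout of STAR. The submitters' notes name STAR and BDGP6 (versions not given in the sources used here). Counts of the strand that fits the TruSeq Stranded mRNA kit were used. The study's methods describe another route to its own tables, through a pseudo-aligner. Each file also holds 486 lines that name no gene (0.0329% to 0.0461% of assigned pairs), which stayed out of library sizes and tests. Symbols, places and merged exon lengths come from the BDGP6.54 annotation, with older symbols matched through RefSeq synonyms, so that *nos* is nanos and not the nitric oxide synthase gene.

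Genotypes, taken from the labels, were compared with edgeR 4.0.16 in R 4.3.3 (TMM, robust quasi-likelihood test, Benjamini-Hochberg over the 11422 genes that reached 12 counts across the 6 libraries, passed at an adjusted p of at most 0.05). TMM factors were 0.973 to 1.03. Alternatives were DESeq2 1.42.0, limma-voom (limma 3.58.1), other scalings, filters and strand, a replicate block, and omission of libraries. Depth was 11249487 to 16029304 assigned pairs. The floors and count intervals reflect counting error alone, as duplicates from PCR cannot be told from separate molecules. edgeR was run on simulated data in which few genes changed, by 2-fold or more, with the same spread set for every gene. The simulation does not bear on the smaller changes of most members. All pairs of libraries of the same genotype differed by more than the sampling noise. The members and lists were chosen with earlier results of these data known. All members are named, and from each other list up to 3 genes per direction with the smallest p, plus *roX1* and *roX2*. *Ctip*, entered among the precursor genes by mistake, was left out.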

Additional observations from a re-analysis of the deposited data

How the results depend on the processing

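Of the 10 genes, 4 passed higher with all libraries, 1 with DESeq2, 1 without replicate 3 of both genotypes, and 1 to 4 when 1 library was left out, while 0 passed lower in every setting. The log2 fold change of *bam* ran from -0.075 to 0.11, of *bgcn* from -0.43 to 0.23 and of *can* from -0.68 to 0.35 when 1 library was left out. That of *bgcn* was 0.0083 with library totals and 0.037 without replicate 3 of both genotypes. The cause was not tested. With library totals the median of all genes moved to 0.072, and 2939 rose and 2525 fell. Replicate numbers did not pair the samples (r of deviations from the group means between same-numbered libraries -0.29, -0.10 and -0.31 over 11422 genes), and no sample correlated best with its own number. With the replicate block 4 of the 10 genes passed higher and 0 lower (adjusted p = 0.0497 for *vas*, 0.0050 for *aub*, 0.041 for *piwi* and 0.036 for *aly*, edgeR), and 14 higher and 12 lower genes of the germline lists became 12 and 12. Depth limits *aly* and *can* most, which hold 17 and 16 counts in all.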
